A study of Mus musculus with 11 samples.

Results

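Natural killer (NK) cells of the aged mouse lung were picked out of 11 single-cell RNA libraries by their own measured transcripts. A cell was taken as an NK cell when it held 2 or more unique molecular identifiers (UMIs, each standing for 1 captured RNA molecule) of Ncr1 and Klre1 together, at most 1 UMI of Cd3d, Cd3e and Cd3g together, and none of the B cell gene Cd79a or the neutrophil gene Csf3r. Only barcodes between 1000 and 30000 UMIs entered, and those above 14% mitochondrial UMIs were left out. It found 1174 NK cells among 69267 such cells, or 1.695%, with 50 to 200 in each library. Because Ncr1, Klre1 and the excluded genes chose the cells, their levels are given here only as a description.

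NK cells are innate lymphocytes that kill infected, stressed or transformed cells without rearranged antigen receptors. They weigh signals from activating receptors such as NKp46 (Ncr1), NKG2D (Klrk1) and NK1.1 (Klrb1c) against inhibitory receptors that read MHC class I. The inhibitory ones include CD94/NKG2A (Klrd1 and Klrc1) and part of the Ly49 family (Klra genes), whose other members are activating. NK cells release perforin and granzymes when activation prevails. The mouse lung holds many circulating, mature NK cells that carry Itgam (CD11b), beside fewer tissue-resident group 1 innate lymphoid cells.

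The rule and the first look at the cells rested on the genes Ncr1, Klre1 and Gzma, so the sequence around their start sites is shown, from RefSeq on GRCm38.p6, from 250 bases before to 50 bases after the start. Capitals mark matches to the RUNX hexamer TGTGGT, which reads ACCACA where it lies on the other strand, and to the T-box half-site TCACAC, which there reads GTGTGA, motifs of 2 families of factors active in NK cells. The Ncr1 window is chr7:4337465-4337764 on the plus strand, that of Klre1 chr6:129577963-129578262 on the plus strand, and that of Gzma chr13:113100932-113101231 on the minus strand.
Ncr1: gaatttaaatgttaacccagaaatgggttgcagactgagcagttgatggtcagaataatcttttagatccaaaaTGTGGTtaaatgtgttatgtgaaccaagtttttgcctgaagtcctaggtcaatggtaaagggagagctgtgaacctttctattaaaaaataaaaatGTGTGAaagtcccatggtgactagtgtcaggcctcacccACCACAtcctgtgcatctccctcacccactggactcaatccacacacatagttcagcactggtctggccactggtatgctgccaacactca
Klre1: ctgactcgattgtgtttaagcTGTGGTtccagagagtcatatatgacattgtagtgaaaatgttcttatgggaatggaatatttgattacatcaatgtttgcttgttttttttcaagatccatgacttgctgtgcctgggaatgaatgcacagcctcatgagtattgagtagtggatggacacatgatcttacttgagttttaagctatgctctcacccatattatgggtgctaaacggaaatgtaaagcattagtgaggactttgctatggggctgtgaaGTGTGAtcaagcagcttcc
Gzma: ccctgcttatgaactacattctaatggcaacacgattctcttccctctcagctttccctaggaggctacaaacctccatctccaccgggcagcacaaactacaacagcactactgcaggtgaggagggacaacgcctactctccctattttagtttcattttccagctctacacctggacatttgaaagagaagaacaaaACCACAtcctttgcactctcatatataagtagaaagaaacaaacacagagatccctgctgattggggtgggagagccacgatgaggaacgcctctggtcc
Positions are counted from the RefSeq start site. GENCODE starts the Klre1 gene further upstream, at chr6:129577905, so the Klre1 window lies inside that annotated gene. The Ncr1 window held the RUNX hexamer at -176 and -41 and the T-box half-site at -80, the Klre1 window held them at -229 and 31, and the Gzma window held the RUNX hexamer at -50 and no T-box half-site. Of the 12 NK marker genes with a promoter in the table, 9 had the RUNX hexamer and 4 the T-box half-site, where 16.9% and 14.4% of all 27025 promoters of the same length did. These matches describe the letters in the window and are not binding sites found in these cells.

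The cells carried transcripts of NK cells that the rule had not asked for. Gzma, the granule protease granzyme A, had a UMI in 91.1% of the 1174 cells, Prf1 (perforin) in 94.0%, Klrd1 (CD94) in 94.6% and Klrb1c (NK1.1) in 89.9%. Eomes, the T-box factor that separates NK cells from other innate lymphoid cells, was seen in 61.0%. Among T cell genes that the rule had not used, Cd8a was seen in 0.426% of cells and the T cell receptor alpha constant gene Trac in 2.56%, whereas the beta constant gene Trbc2, which NK cells are known to transcribe without rearrangement, was seen in 38.8%. Of 10 markers of the other innate lymphoid types, ILC2 and ILC3, 7 had a UMI in some NK cell, and their summed level was 0 to 30.87 UMIs per 1000000 in a library, while the cytokine genes Il5 and Il22 had none. These genes were measured in the same cells as the rule, so they describe the cells and test nothing.

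At the edge of the rule, 87 NK cells had exactly 2 UMIs of Ncr1 and Klre1, with a median depth of 4112 UMIs, and Gzma was seen in 65.5% of them. The 211 cells just outside, with 1 such UMI and otherwise passing, had a median of 11370 UMIs, and Gzma was seen in 21.3%, Klrb1c in 19.4% and the macrophage gene Lyz2 in 80.1%. A larger group of 1525 cells had 2 or more UMIs of Ncr1 and Klre1 but over 2 UMIs of the Cd3 genes. In these cells Klre1 was seen in 99.5%, Ncr1 in 4.59%, Cd8a in 66.8% and Trac in 90.0%, so they carried T cell genes and were kept apart from the NK cells.

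The libraries were made from dissociated lungs of mice of 18 to 20 months, 1 library to a sample, in a study on the induction of mTert (mouse telomerase reverse transcriptase) in p21-positive cells. The 4 groups were wild type (p21 +/+, 1 library, 18 months), p21 heterozygotes (p21 +/-, 3 libraries, 19, 18 and 18 months, called p21Het), p21 mTert (p21 +/mTert, 5 libraries, 20 months in the first and 18 in the rest) and p21 mTertCD (p21 +/mTertCD, 2 libraries, 18 months), where the labels do not spell out CD. All groups but the wild type thus carry an altered allele of p21, whose gene is Cdkn1a, and the labels name no other promoter or Cre. The titles of the wild type library and of p21Het and p21mTert library 1 give 18 months for all 3, against the ages above, and these 3 carry another library label than the other 8 and are called the first deposit. Whether libraries came from separate mice is not stated, so p-values measure the spread between these samples, which may be technical. With 1 library, the wild type entered no test between genotypes.

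Depth was 42038434 to 85988955 UMIs in the barcodes of a library and 348561 to 1167064 UMIs in its NK cells. The median NK cell had 4926 UMIs, against 5259 over all cells and 7615 in CD8 T cells. Of 68650 distinct barcodes, 617 were found in more than 1 library, and no barcode was an NK cell in 2 libraries. Free RNA was present: the alveolar epithelial gene Sftpc had a UMI in 89.8% of NK cells and 90.9% of CD8 T cells. Gm42418, a gene model that overlaps ribosomal RNA, took at most 0.652% of NK UMIs in any library of the first deposit and at least 4.46% in the others, so the libraries of the first deposit stand apart.

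NK cells made up a smaller share of cells in the p21mTertCD libraries than in any p21mTert library, and p21Het lay between and across them. The share was 0.762 and 1.02% in p21mTertCD, 1.45, 2.66, 1.57, 2.24 and 2.52% in p21mTert libraries 1 to 5, 2.09, 1.02 and 1.84% in p21Het libraries 1 to 3, and in the wild type 1.72% (95% exact binomial interval 1.39 to 2.10%, which covers counting error only). The lowest p21mTert library stood above both p21mTertCD libraries, while p21Het overlapped p21mTert and, at its lowest, stood at 1.021% beside 1.018% in the higher p21mTertCD library. Means were 2.09 ± 0.551% (SD, n = 5) in p21mTert, 1.65 ± 0.560% (n = 3) in p21Het and 0.890 ± 0.181% (n = 2) in p21mTertCD.

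The difference between p21mTert and p21mTertCD was 1.20 percentage points, with a 2-sided exact permutation p of 0.0476, the smallest this design allows, and 0.143 after Benjamini-Hochberg adjustment over 3 comparisons. That between p21mTert and p21Het was 0.435 points (exact permutation p = 0.339, adjusted 0.339) and ranged from 0.120 points without p21Het library 2 to 0.655 without library 1, with 0.815 in the later deposit, and that of p21mTertCD from p21Het was -0.761 points (exact permutation p = 0.2, adjusted 0.3, smallest possible 0.1). Without the cells marked as doublets the first was 1.20 points as well, with an exact permutation p of 0.0952. None of the 3 differences passed the adjusted threshold of 0.05. Within the 8 libraries of the later deposit, the difference between p21mTert and p21mTertCD was 1.36 points (exact permutation p = 0.0667, the smallest possible there); the first deposit holds 1 library of each of its groups and allows no test. Dissociated cells give shares, so fewer NK cells and more of another cell type cannot be told apart in them.

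**Figure D1:**
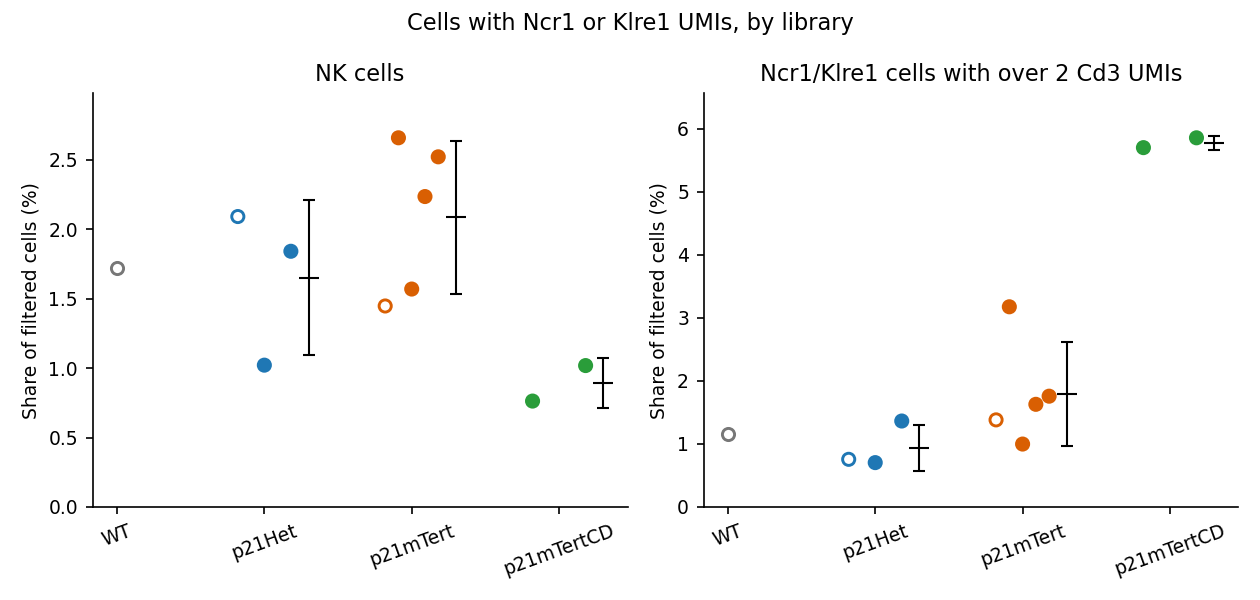
NK cells (left) and cells with Ncr1 or Klre1 and over 2 Cd3 UMIs (right), each as a percentage of filtered cells, with 1 point per library, open circles for the first deposit, and the mean ± SD beside groups with 2 or more libraries. Both p21mTertCD libraries are below every p21mTert library on the left, at 0.762 and 1.02%, and above all others on the right, at 5.70 and 5.86%.

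Other lymphocytes also differed between these libraries. T cells with Cd3 UMIs made up 32.1 ± 7.30% of cells in p21mTertCD, 20.6 ± 3.54% in p21mTert and 15.8 ± 1.69% in p21Het, while B cells made up 2.70 and 24.5% in the p21mTertCD libraries and 22.03 to 32.13% in p21mTert, which overlapped. Per 100 Cd3 cells there were 2.91 ± 1.23 NK cells in p21mTertCD, 10.7 ± 4.38 in p21mTert and 10.7 ± 4.55 in p21Het (SD, n = 2, 5 and 3). The Klre1 cells with over 2 Cd3 UMIs went the other way from the NK cells. They made up 5.70 and 5.86% of cells in p21mTertCD, 0.941 ± 0.367% in p21Het and 1.79 ± 0.828% in p21mTert, a difference of -3.99 points between p21mTert and p21mTertCD (exact permutation p = 0.0476, the smallest possible, 0.2 adjusted over 12). Counted together with them, the share of Ncr1 or Klre1 cells was 2.80 points lower in p21mTert than in p21mTertCD (exact permutation p = 0.0476), so the direction of the difference depended on whether cells with Cd3 were counted. That count was chosen after the data had been seen.

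Most NK receptor genes were higher in NK cells than in the CD8 T cells of the same libraries. These were 3737 cells chosen by their own T cell genes and by having no UMI of Ncr1 or Klre1. The 1525 Klre1 cells with over 2 Cd3 UMIs, of which 66.8% had a Cd8a UMI, were thereby left out. In those cells Klrb1c was seen in 22.6%, against 1.93% of the CD8 T cells used, Gzma in 23.9% against 10.2% and Prf1 in 63.3% against 44.2%. The part of this choice in the differences from CD8 T cells was not tested. This comparison summed UMIs over each population of each of the 11 libraries and compared them within library with edgeR's quasi-likelihood test, and a call needed an adjusted p under 0.05 and at least a 2-fold change. Of 8125 genes tested, 476 (5.86%) were called higher in NK cells and 453 (5.58%) lower. Both populations were chosen by their RNA, so the values describe the NK cells and support nothing about what they are. The same holds for the counts by gene list below, since a gene expressed in NK cells alone enters the test only because it is high there. Levels are given as CPM, the UMIs of a gene per 1000000 UMIs of that population in that library; the 3′ kit counts 1 tag per molecule, so CPM was not divided by length. Log2 differences and the 2-fold rule come from the fit, which scales the libraries by TMM (trimmed mean of M-values) factors, and so can differ from the ratio of mean CPM, even in sign for small differences.

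Activating receptors had a median log2 difference of 2.71 over 17 tested members, where all genes had 0.01. Of the 17, 13 were called higher in NK cells and 2 lower, the latter Slamf6 and Crtam. Klrb1c (NK1.1) lay between 496.4 and 664.3 CPM with a median of 563.3 in the 11 libraries, against 3.13 CPM on average in CD8 T cells, a log2 difference of 7.23. No library's Klrb1c level overlapped between the populations. Klrk1 (NKG2D), which activated CD8 T cells also carry, lay between 439.9 and 982.6 CPM with a median of 768.3, against 116 CPM in CD8 T cells, a log2 difference of 2.46. Cd244 (2B4), a receptor of the SLAM family, averaged 134 CPM and stood 5.15 higher on the log2 scale, while Cd226 (DNAM-1) differed by 0.06 and was not called.

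Inhibitory receptors had a median log2 difference of 3.80, with 9 of 11 tested members called higher and Lag3, a checkpoint receptor, called lower. Klrd1, the CD94 chain shared by inhibitory and activating NKG2 dimers, lay between 590.1 and 903.7 CPM with a median of 740.2, against 170 CPM in CD8 T cells. Klrc1 (NKG2A), its inhibitory partner, averaged 235 CPM and stood 1.60 higher on the log2 scale. Klrc2 (NKG2C), the activating partner, averaged 366 CPM and stood 2.18 higher. Klrg1, a cadherin receptor of mature NK cells, averaged 168 CPM and stood 3.80 higher. Klrb1b, whose product binds the lectin-like ligand Clr-b, averaged 224 CPM against 0.723 CPM in CD8 T cells.

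Most of these receptors belong to 1 gene cluster. The count table held 26 genes named Klr, and 24 of them lie within chr6:128609227-131247362 on GRCm38, the NK gene complex. Of the Klr genes other than Klre1, 16 passed the filter on low counts, and these 16 were called higher in NK cells. Several passed through the NK cells alone, such as Klrb1a and Klri2, which stood below 1 CPM in every CD8 T cell library, so for them a higher level followed from the filter and the count supports nothing. Klrb1c lies at chr6:128778485-128789215 on the minus strand, Klrd1 at chr6:129591782-129598775 on the plus strand and Klrk1 at chr6:129610323-129623864 on the minus strand. Ncr1 lies elsewhere, at chr7:4337724-4345164, and Klre1 is inside the complex at chr6:129577905-129585827, both on the plus strand.

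**Figure D2:**
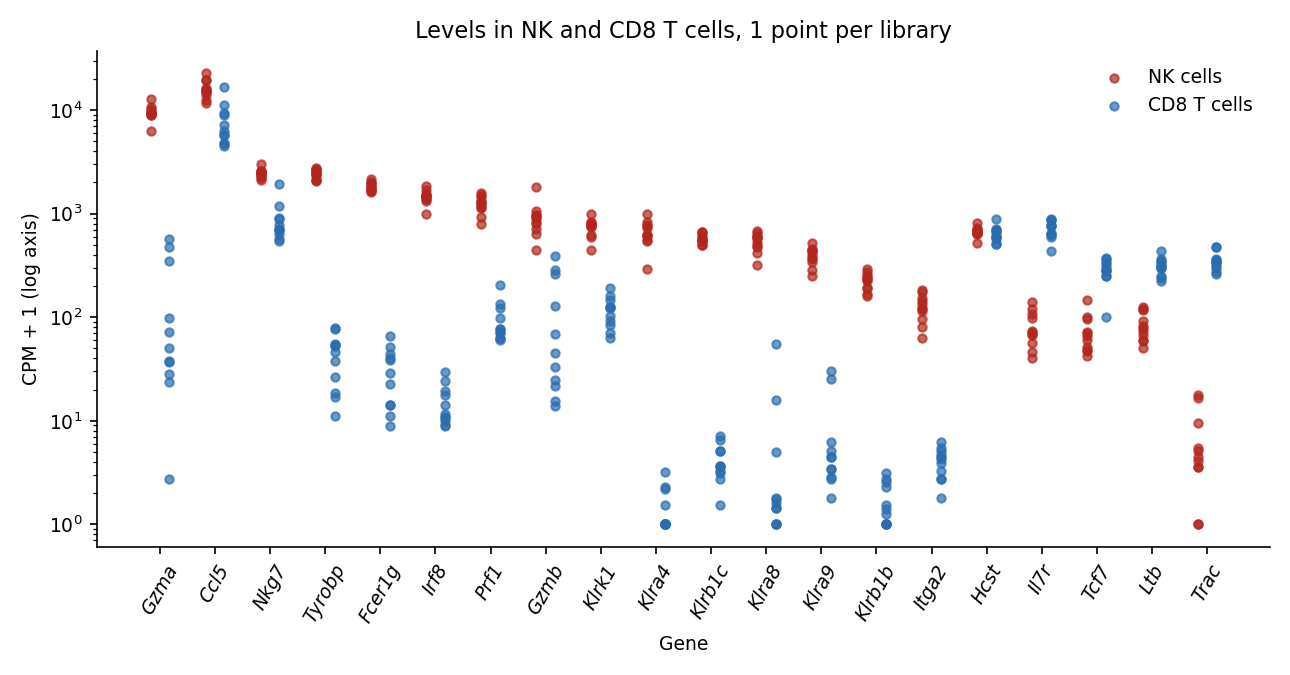
Levels of 20 genes in NK cells (red) and CD8 T cells (blue), as CPM plus 1 on a log axis, with 1 point per library and population. Klrb1c (496.4 to 664.3 CPM in NK cells) and Klra4 (293.2 to 989.4 CPM) are far above the CD8 T cells, Hcst is at similar levels in both, and Il7r, Tcf7, Ltb and Trac are lower in NK cells.

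The Ly49 receptors were each seen in only some of the cells. These receptors, encoded by the Klra genes, are inhibitory or activating, and many bind MHC class I. They are known to be switched on in some NK cells and not in others, so that each cell carries its own set. In the lists above, Klra4 and Klra8 were among the activating receptors. The promoter windows of Klra4 (chr6:130067222-130067521) and Klra8 (chr6:130129849-130130148), both on the minus strand of GRCm38.p6 and from RefSeq, are shown because these neighbouring genes are near copies. Capitals mark the 41 bases in each that differ from the partner or have no aligned base in it.
Klra4: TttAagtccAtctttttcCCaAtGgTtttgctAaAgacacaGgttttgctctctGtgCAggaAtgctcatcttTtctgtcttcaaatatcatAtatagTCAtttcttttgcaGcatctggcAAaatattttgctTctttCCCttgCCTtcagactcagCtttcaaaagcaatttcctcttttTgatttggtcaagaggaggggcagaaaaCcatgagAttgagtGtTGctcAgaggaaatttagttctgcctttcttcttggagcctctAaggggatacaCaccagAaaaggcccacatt
Klra8: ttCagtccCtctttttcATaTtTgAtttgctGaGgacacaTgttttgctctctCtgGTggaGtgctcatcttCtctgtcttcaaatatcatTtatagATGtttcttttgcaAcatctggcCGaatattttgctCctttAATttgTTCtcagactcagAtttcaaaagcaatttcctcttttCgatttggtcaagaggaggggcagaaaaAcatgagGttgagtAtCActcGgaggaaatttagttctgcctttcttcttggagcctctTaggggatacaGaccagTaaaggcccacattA
These windows were 86.1% identical, those of Klra3 and Klra9 85.0%, and the other pairs of the 6 expressed Klra genes 47.1 to 54.2%. None of the 4 windows of Klra3, Klra4, Klra8 and Klra9 held the RUNX hexamer or the T-box half-site.

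Over all NK cells, Klra8 was seen in 55.3% of cells, Klra9 in 53.7%, Klra4 in 48.0%, Klra7 in 44.2%, Klra3 in 41.8% and Klra1 in 12.1%. Klrd1 was seen in 94.6%, Klrk1 in 94.0% and Klrb1c in 89.9%. Over the 11 libraries no Klra gene exceeded 67.7%, and none of Klrd1, Klrk1 and Klrb1c fell below 85.6%. Other receptors outside the Ly49 family lay lower than these 3: Klrc2 was seen in 77.9% of cells, and Klrg1 in 41.8%, with a range over libraries of 21.5 to 72% that overlapped the Klra genes. The order was not that of the levels, since Klra4 averaged 663 CPM and Klrb1c 571 CPM. Where it was seen, Klra4 had 7.93 UMIs per cell and Klra8 5.85, against 4.58 for Klrk1. With each cell thinned to 1000 UMIs, which left out no cell, Klra4 was seen in 34.2% and Klra8 in 34.6% of cells, Klrb1c in 48.6% and Klrk1 in 53.4%. In B cells thinned alike, which should lack these genes, the Klra genes were seen in 0.038 to 0.069% of 15964 cells.

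Per cell, 113 NK cells showed none of the 6 Klra genes, 180 showed 1, 253 showed 2, 304 showed 3, 233 showed 4, 81 showed 5 and 10 showed all 6. These counts depend on depth: 24.96% of cells showed none after thinning to 1000 UMIs, against 9.63% at full depth, 31.09% showed 1, 26.92% showed 2 and 13.37% showed 3. At full depth the mean number per cell ran from 1.92 in p21mTertCD library 1 to 2.85 in p21Het library 1. Klra4 stood 9.90 ± 0.24 (SE) higher on the log2 scale in NK cells than in CD8 T cells, at a median of 617.8 CPM against 0.474 CPM on average. Reads of these near copies may be split: 36.7% of the 60-base windows in the last 500 bases of Klra9 and 32.0% of those of Klra3 also occur in another Klra transcript, against 2.49% for Klra4 and 6.35% for Klra8. Values of Klra3, Klra7 and Klra9 are uncertain for that reason.

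**Figure D3:**
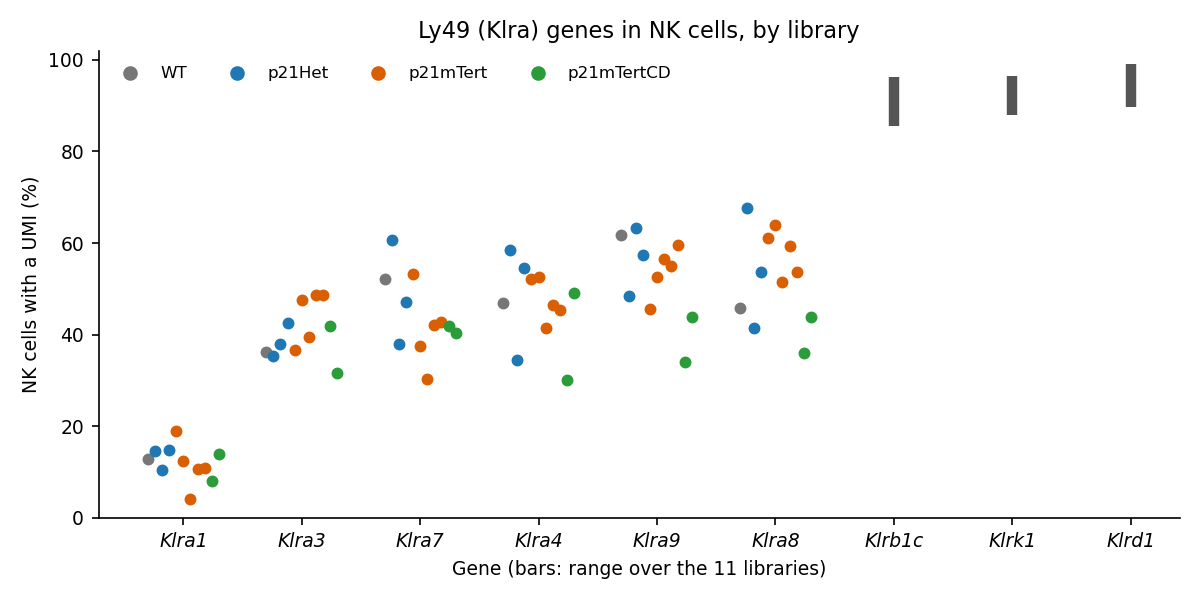
Percentage of NK cells with at least 1 UMI of each of 6 Ly49 (Klra) genes, with 1 point per library coloured by group, beside the range over the 11 libraries for Klrb1c, Klrk1 and Klrd1. The Klra genes lie between 4.04 and 67.7% and these 3 receptors at 85.6% or more; Klrg1 and Klrc2, which are not drawn, lie lower.

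Several signalling chains beneath the receptors were higher in NK cells. Of 20 tested adaptors and proximal kinases, 7 were called higher and 2 lower, with a median log2 difference of 0.20 over the list. Tyrobp (DAP12), the ITAM adaptor of activating Ly49 and NKG2C receptors, lay between 2065 and 2759 CPM with a median of 2408, against 42.0 CPM in CD8 T cells. Fcer1g, the adaptor of NKp46, lay between 1623 and 2135 CPM with a median of 1811, against 29.9 CPM. Syk, the kinase that binds phosphorylated ITAMs, averaged 85.1 CPM against 5.34 CPM. Lat, an adaptor that relays T cell receptor signals, was called lower, at 39.8 CPM against 258 CPM. Hcst (DAP10), the adaptor of NKG2D, was at 670 CPM in NK cells and 636 CPM in CD8 T cells and was not called (log2 difference -0.17, adjusted p = 0.085 by edgeR's quasi-likelihood test).

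The main granule genes of killer cells were higher in NK cells than in CD8 T cells. Gzma lay between 6249 and 12870 CPM with a median of 9318, against 157 ± 203 CPM (SD, n = 11) in CD8 T cells, and stood 6.76 ± 0.51 (SE) higher on the log2 scale. Prf1, which forms the pore through which granzymes enter a target, lay between 784.8 and 1573 CPM with a median of 1255, against 93.6 CPM. Gzmb (granzyme B, at chr14:56258838-56262260 on the minus strand) lay between 441.6 and 1806 CPM with a median of 913.3, against 116 CPM. In all 3 genes no NK library fell to the level of a CD8 T cell library. Of 21 tested cytotoxic genes, 10 were called higher and 2 lower, the latter being Gzmk, at 1.51 CPM against 89.3 CPM, and Gzmm, proteases of the granzyme family. Fasl, the death ligand, stood 1.47 higher on the log2 scale, and Serpinb9, which protects the killer cell from its own granzyme B, 3.28 higher.

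Chemokine and cytokine genes were partly higher in NK cells. Ccl5 averaged 16090 ± 3209 CPM (SD, n = 11) against 7728 CPM in CD8 T cells, a log2 difference of 0.90 that fell short of the 2-fold rule. Ccl4 averaged 1528 ± 802 CPM and Ccl3 325 ± 260 CPM, chemokines that activated NK cells release, and Ifng averaged 154 ± 91.4 CPM. Xcl1, which draws cross-presenting dendritic cells, averaged 292 ± 113 CPM and stood 2.51 higher on the log2 scale. The libraries of the first deposit held the 3 highest Ccl3 levels, at 392 to 1057 CPM against 91.7 to 296 CPM in the other 8; the part of the deposit in this spread was not tested. Of 8 tested cytokine genes, 4 were called higher than in CD8 T cells and Ltb, lymphotoxin beta, lower. Of 24 cytokine receptors and STAT pathway genes, 3 were called higher and 1 lower; Il2rb, the receptor chain for IL-2 and IL-15, lay between 866.8 and 1539 CPM against 333 CPM.

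Genes of late NK maturation were higher in NK cells than in CD8 T cells. Of 14 tested genes of late maturation, 13 were called higher than in CD8 T cells and none lower, with a median log2 difference of 2.85. They included Itgam, at 169 CPM, Cx3cr1, a receptor of patrolling cells, at 116 CPM, S1pr5, which lets NK cells leave tissue, at 79.8 CPM, and Zeb2, a factor of terminal maturation, at 303 CPM. Of 12 genes of early maturation, 7 were called lower and 4 higher, with a median of -1.13. Those lower were Cd27, Il7r, Emb, Ltb, Tcf7, Thy1 and Cxcr3, which T cells share. Within single cells, Itgam without Cd27 was seen in 40.7% of NK cells, Cd27 without Itgam in 19.3%, both in 12.0% and neither in 27.9%, shares that depend on depth.

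The transcription factors that set NK identity were split. Of 22 tested, 8 were called higher than in CD8 T cells and 3 lower, with a median log2 difference of 0.38. Irf8, a factor of NK cell and myeloid development, lay between 981.7 and 1841 CPM with a median of 1481, against 14.1 CPM. Tbx21 (T-bet) averaged 188 CPM against 46.9 CPM and stood 1.77 higher on the log2 scale. Nfil3, needed for NK development, stood 1.62 higher at 77.3 CPM. Eomes averaged 266 ± 68 CPM (SD, n = 11) against 129 CPM, a log2 difference of 0.81 below the 2-fold rule. Tcf7 (TCF-1), Tox and Batf were called lower, with Tcf7 at 71.7 CPM against 285 CPM.

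Homing genes went both ways, with 10 of 20 called higher and 4 lower. Itga2 (CD49b), an integrin used to mark NK cells, averaged 125 ± 37.1 CPM against 3.06 CPM. The 4 lower genes were S1pr1, the exit receptor of T cells, at 62.6 CPM against 276 CPM, Cxcr3, Cxcr6, at 23.6 CPM against 66.4 CPM, and Cd69, at 164 CPM against 338 CPM. Interferon-stimulated genes had 7 of 19 called lower and none higher, among them Ly6a, Gbp2 and Usp18, with a median log2 difference of -0.73. None of 13 telomere genes and none of 14 cell cycle genes was called.

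Within the NK cells, 7 sub-clusters were found, and their leading genes chose them and are given as a description. The largest, 382 cells, was led by Emb and had Cd27 at 226 CPM against 46.4 CPM in the other NK cells, Tcf7 at 159 against 26.5 CPM and Gzmb at 365.3 against 1135 CPM, genes of early maturation over late ones. A sub-cluster of 250 cells had Cx3cr1 at 308 against 55.7 CPM, Klrg1 at 364 against 106 CPM and Cd27 at 21.27 against 130.0 CPM, and was led by Sftpc, Sftpa1 and Igkc, genes of other cell types. Another of 227 cells had Itgam at 296 against 150 CPM and Prf1 at 2009 against 1115 CPM, and was led by haemoglobin genes such as Hbb-bs at 7088 against 528 CPM. In these 2 the RNA of other cells went along with the late genes in CPM, and its part in the clustering was not tested. Shares of cells with a UMI are given beside those in the other NK cells. In the 250 cells, Sftpc was seen in 90.8 against 89.5%, Sftpa1 in 44.4 against 34.96% and Igkc in 59.6 against 43.94%. Cx3cr1 was seen there in 56.8 against 11.8% and Klrg1 in 80.4 against 31.39%. In the 227 cells, Hbb-bs was seen in 66.52 against 57.87% and Itgam in 68.72 against 48.89%.

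A sub-cluster of 187 cells was led by Ccl3, at 1517 against 122 CPM, Ccl4, at 4918 against 920 CPM, and the stress gene Gadd45b, with Ifng at 400 against 101 CPM. One of 67 cells was ILC1-like, that is, like the tissue-resident innate lymphoid cells that share Ncr1 with NK cells. It had Cxcr6 at 301 against 3.93 CPM, Il7r at 626 against 36.7 CPM, Itga1 at 159.1 against 29.11 CPM and Tnfsf10 (TRAIL) at 106.9 against 8.655 CPM. The same 67 cells had Eomes at 14.91 against 286.2 CPM, Prf1 at 203.8 against 1313 CPM, and Klra4 in 2.985% of cells against 50.77%, while Ncr1 was seen in 98.51%. The T cell receptor gamma constant gene Tcrg-C4, at 129.3 against 7.239 CPM, and Kit, at 84.51 against 32.73 CPM, were also high in it. A sub-cluster of 46 cells was led by the MHC class II genes H2-Ab1 and Cd74 with Cst3 and the macrophage gene Chil3. Its median depth was 11430 UMIs, 50% of its cells were marked as doublets against 4.00% of all NK cells, and it was given no name. The last, 15 cells in 7 libraries, was led by Mki67 and Top2a, genes of dividing cells.

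**Figure D4:**
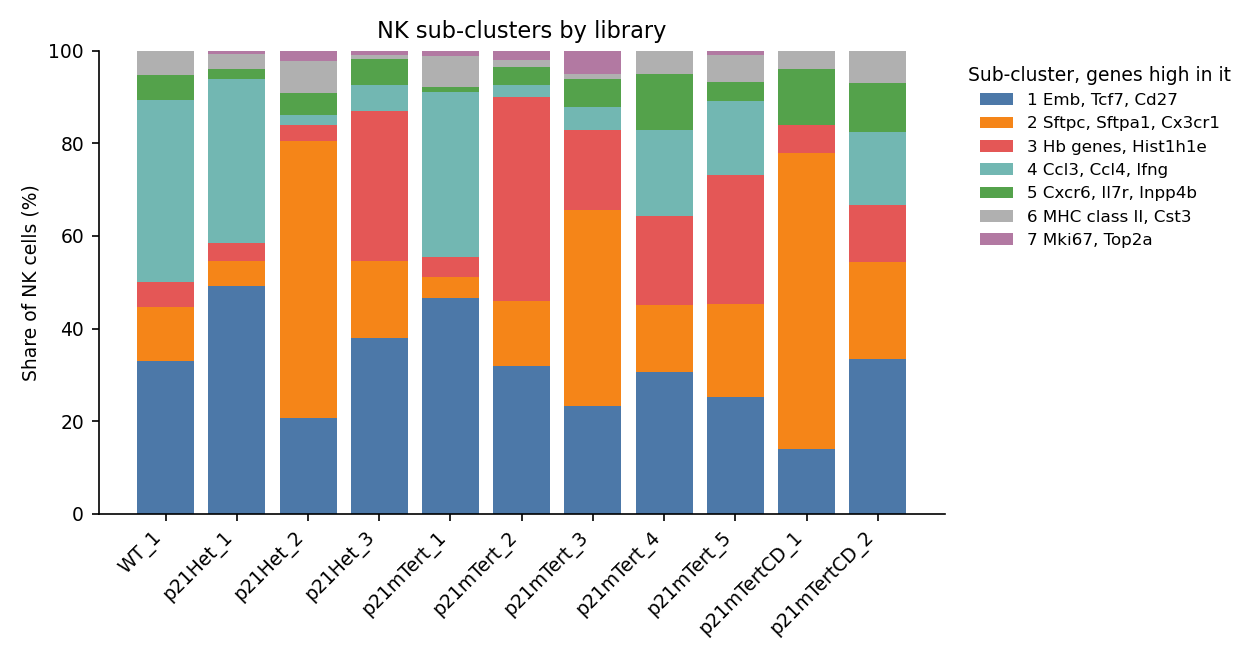
Share of each library's NK cells in the 7 sub-clusters, as stacked bars that sum to 100%, with libraries ordered by group. The Ccl3 and Ccl4 sub-cluster takes at least 35.4% in each library of the first deposit and at most 18.6% in the others.

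The sub-cluster shares ranged widely between libraries of the same group. The Emb sub-cluster took 33.0% of NK cells in the wild type, 49.2, 20.7 and 38.0% in p21Het libraries 1 to 3, 46.7, 32.0, 23.2, 30.7 and 25.2% in p21mTert libraries 1 to 5 and 14.0 and 33.3% in p21mTertCD. All groups overlapped in it. The sub-cluster led by Sftpc ranged from 4.44 to 64.0% and that led by haemoglobin genes from 3.45 to 44.0%. The Ccl3 and Ccl4 sub-cluster took 39.4% in the wild type, 35.4% in p21Het library 1 and 35.6% in p21mTert library 1, the 3 libraries of the first deposit, and at most 18.6% elsewhere. The first deposit holds 1 library in each of 3 groups and none of p21mTertCD.

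The ILC1-like sub-cluster took 5.32% in the wild type, 2.31, 4.60 and 5.56% in p21Het libraries 1 to 3, 1.11, 4.0, 6.06, 12.1 and 4.20% in p21mTert libraries 1 to 5, and 12.0 and 10.5% in p21mTertCD. Both p21mTertCD libraries held 6 such cells each, and stood above all p21Het libraries and within the range of p21mTert. The difference between p21mTertCD and p21Het was 7.11 points (exact permutation p = 0.1, the smallest possible, 0.981 adjusted over 14 comparisons). None of the 7 sub-clusters differed between p21mTert and p21Het or between p21mTertCD and p21Het at an unadjusted exact permutation p under 0.05, a level that p21mTertCD against p21Het cannot reach. Between p21mTert and p21mTertCD none did either, and the widest difference was in the sub-cluster led by Sftpc, at 19.1 ± 14.2% against 42.5 ± 30.4% (SD, n = 5 and 2, exact permutation p = 0.0952).

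Cdkn1a, the altered locus itself, was lower in p21mTert NK cells than in p21Het NK cells by an amount that did not pass the test across genes. It encodes p21, an inhibitor of cyclin-dependent kinases and a target of p53. Its level was 81.3 CPM in the wild type (34 UMIs, 95% exact Poisson interval 56.3 to 114 CPM), 53.9, 89.4 and 80.6 CPM in p21Het, 17.8, 37.7, 46.0, 55.5 and 44.2 CPM in p21mTert, and 43.7 and 94.7 CPM in p21mTertCD. Of the p21mTert libraries only library 4 exceeded the lowest p21Het library. The log2 difference between p21mTert and p21Het was -0.82 ± 0.295 (SE), with an adjusted p = 1.0 over all genes by edgeR's quasi-likelihood test, and that between p21mTert and p21mTertCD was -0.84 ± 0.372 (adjusted p = 0.634); both were under 0.05 before adjustment. Cdkn1a was also called higher in NK cells than in CD8 T cells, at 58.6 ± 24.4 against 23.1 ± 7.98 CPM (SD, n = 11), in 10 of 11 libraries. Without the MHC class II sub-cluster its NK levels were 18.9 to 60.1 CPM and overlapped those of CD8 T cells, at 8.25 to 31.94 CPM; the call was not tested without it. Whether the mTert and mTertCD alleles still give a counted Cdkn1a tag is not stated in the labels, so this level does not check the genotype.

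The MHC class II sub-cluster, 46 of the 1174 cells, held 31.9% of all Cdkn1a UMIs of the NK cells. Leaving out a sub-cluster was chosen after the data had been seen. This one held 2 and 4 cells in the p21mTertCD libraries. Without it, Cdkn1a differed by -0.45 between p21mTert and p21Het and by 0.20 between p21mTert and p21mTertCD, so the second difference changed sign. Without p21Het library 2, the first was -0.60, no longer under 0.05 before adjustment, and without p21mTertCD library 2 the second was -0.31. In the later deposit alone they were -0.90 and -0.68. Tert, the telomerase gene, had 4 UMIs in all NK cells, 2 in p21mTert (1 each in libraries 4 and 5) and 2 in p21mTertCD library 1, and none in the wild type or p21Het. With no UMI seen, counting error allows up to 3.19% of wild type and 0.923% of p21Het NK cells with one, a limit on cells with a UMI and not on cells that express the gene, and whether the mTert alleles carry the 3′ end that was counted is not stated.

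No gene passed an adjusted p under 0.05 between genotypes. The comparison of p21mTert with p21Het called 0 of 7196 genes (0.0%), with 268 (3.72%) under 0.05 unadjusted, that of p21mTert with p21mTertCD called 0 (0.0%), with 555 (7.71%), and that of p21mTertCD with p21Het called 0 (0.0%), with 536 (7.45%), all by edgeR's quasi-likelihood test. DESeq2 called 0, 25 and 1 genes, and 18 of the 25 were ribosomal protein genes, while the 1 was Kctd12. Ribosomal protein genes took 22.4 and 20.7% of NK UMIs in the p21mTertCD libraries and 16.7 to 20.2% in p21mTert; the part of this shift in the DESeq2 calls was not tested. Counts were also simulated with the same depths and libraries, with 1 spread shared by all genes and changed genes drawn only from those at 50 CPM or more. In these counts edgeR found 50, 48 and 45 of 50 genes lowered 4-fold in the 3 comparisons. It found 33, 16 and 9 of 50 lowered 2-fold and 32, 24 and 21 of 50 raised 2-fold, so many 2-fold changes would be missed with these libraries. It also called 9, 11 and 5 genes that had not been changed. Genes of lower level or wider spread were not simulated, so the 4-fold counts do not cover them. In the data, Cst3 differed by 3.22 on the log2 scale between p21mTertCD and p21Het and was not called. Genes named below as differing between genotypes are mainly those of smallest p, and none was called by edgeR with all libraries, while DESeq2 called Kctd12 as stated. The 3 comparisons share libraries, so their values are set side by side and are not independent of each other.

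Between p21mTert and p21Het, Tulp4, a tubby-like protein gene, had the smallest p of the genes higher in p21mTert. It stood at 146, 148 and 201 CPM in p21Het and at 265, 255, 317, 253 and 295 CPM in p21mTert, with 120 CPM in the wild type and 198 and 166 CPM in p21mTertCD. Every p21mTert library was above every other library, and the log2 difference was 0.76 ± 0.161 (SE, edgeR's quasi-likelihood test, adjusted p = 0.733, the smallest of the comparison and shared with Fabp4, Nrgn and Gm47283). Wdfy1, an endosomal protein gene, stood at 38.5, 35.3 and 18.5 CPM in p21Het and 66.8, 53.1, 59.6, 74.3 and 57.2 CPM in p21mTert, without overlap. Fabp4, a fatty acid binding protein of endothelium and macrophages, was at 15.4, 60.3 and 30.2 CPM in p21Het and 1.11 to 7.71 CPM in p21mTert, and 86.8% of its NK UMIs were in the MHC class II sub-cluster. Without that sub-cluster Fabp4 averaged 1.94 CPM in p21Het and 2.42 CPM in p21mTert, so the direction turned.

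The other genes of smallest p between p21mTert and p21Het, higher in p21mTert, were Gm47283 (log2 difference 1.36), Twf1 (0.88) and Fem1c (0.76). Gm47283 lies on chromosome Y, Twf1 encodes an actin-binding protein and Fem1c a ubiquitin ligase adaptor. Those lower in p21mTert were Nrgn (-1.05), Rell1 (-1.09), Slpi (-2.06) and Eprs (-0.52). Slpi, an antiprotease of epithelium, overlapped between the groups, at 29.2, 39.5 and 70.5 CPM in p21Het and 31.2, 4.3, 6.8, 14.4 and 5.2 CPM in p21mTert. Between p21mTert and p21mTertCD they were, beside Prdm1, Il7r and Kit, Gtf2a2 (1.05), a general transcription factor subunit gene, Spin1 (1.77) and Pde7a (0.75), a cyclic AMP phosphodiesterase gene, higher in p21mTert, and Maf (-0.99), Ahr (-1.26) and Ncoa7 (-1.01) lower. Rxra had no UMI in either p21mTertCD library. Without the ILC1-like sub-cluster Maf differed by -0.54, and without the MHC class II one Ncoa7 differed by -0.52 here and by 0.64 between p21mTertCD and p21Het. With both Ncr1 and Klre1 required, Ncoa7 differed by -0.03 and Ahr by -0.45 between p21mTert and p21mTertCD. Between p21mTertCD and p21Het they were, beside Kctd12 and Cst3, Map4k1 (2.45), Ncoa7 (1.17) and Ppm1k (1.77) higher in p21mTertCD, and Spin1 (-1.85), Mrgbp (-2.27), Pde7a (-0.79) and Fbxl5 (-1.45) lower, with Fabp4 at 0 in both p21mTertCD libraries. Without the MHC class II sub-cluster Map4k1 averaged 12.75 CPM in p21mTertCD and 6.685 CPM in p21Het. Pde7a stood at 66.9 and 83.2 CPM in p21mTertCD and at 110.1 CPM or more in every other library. None of these genes was called by edgeR with all libraries.

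Prdm1, which encodes the late NK maturation factor Blimp-1 (chr10:44437177-44528501, minus strand), was lowest in the p21mTertCD libraries. Its level was 25.7 and 34.4 CPM there, 73.5, 56.6, 71.5, 81.0 and 70.2 CPM in p21mTert, 52.3, 58.2 and 67.2 CPM in p21Het and 64.6 CPM in the wild type. Both p21mTertCD libraries were below the other 9. The log2 difference of p21mTert from p21mTertCD was 1.09 ± 0.243 (SE, edgeR's quasi-likelihood test, adjusted p = 0.374), and that of p21mTertCD from p21Het was -0.83 (adjusted p = 0.503). The first was 1.13 without the MHC class II sub-cluster, 1.11 without the ILC1-like one and 1.10 in the 8 libraries of the later deposit. The maturation lists went both ways between p21mTertCD and p21Het, where 7.45% of all genes were under 0.05 unadjusted. Of 14 tested late genes, Itgb2 and Gzmb were higher in p21mTertCD at that level and Prdm1 lower, with a list median of 0.21. Of 12 early genes, Il7r and Kit were higher and Tcf7 lower, with a list median of 0.06.

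Il7r, the IL-7 receptor chain of early NK and innate lymphoid cells, was highest in p21mTertCD. It stood at 118.3 and 137.7 CPM there, 55.7, 39.4, 71.5, 67.7 and 45.5 CPM in p21mTert, 66.2, 72.7 and 105.8 CPM in p21Het and 98.0 CPM in the wild type. The log2 difference of p21mTert from p21mTertCD was -1.34 ± 0.252 (SE, edgeR's quasi-likelihood test, adjusted p = 0.308). The ILC1-like sub-cluster held 52.0% of the Il7r UMIs, and without it the difference was 0.59 (adjusted p = 0.796), of opposite sign. Il7r is among the genes that lead that sub-cluster, so a smaller difference without it follows in part from the clustering and tests nothing. With both Ncr1 and Klre1 required the Il7r difference was -0.12. Cxcr6, which leads that sub-cluster, stood at 33.4 and 51.6 CPM in p21mTertCD, 16.9, 14.6 and 18.5 CPM in p21Het and 15.6, 21.4, 25.5, 24.4 and 3.9 CPM in p21mTert. Its log2 difference of p21mTert from p21mTertCD was -1.31 and was not called.

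Kit, the stem cell factor receptor, stood at 95.2 and 57.4 CPM in p21mTertCD and at 24.5, 18.0, 34.1, 27.7 and 32.5 CPM in p21mTert. The log2 difference was -1.66, and was -0.65 with both Ncr1 and Klre1 required and -0.92 without the MHC class II sub-cluster. Cst3, the cystatin C gene that dendritic cells and macrophages express highly, stood at 2184 and 3004 CPM in p21mTertCD and 497, 281 and 139 CPM in p21Het, a log2 difference of 3.22. That sub-cluster, with 2 and 4 cells in the p21mTertCD libraries, held 83.8% of Cst3 UMIs, and without it the difference was 0.26. Cst3 is among the genes that lead it, so a smaller difference without it follows in part from the clustering and tests nothing. Kctd12 likewise stood at 193 and 465 CPM in p21mTertCD against 151, 114 and 129 CPM in p21Het, 1.43 on the log2 scale (edgeR's quasi-likelihood test, adjusted p = 0.372), 0.81 without p21mTertCD library 2, and 0.20 without that sub-cluster.

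**Figure D5:**
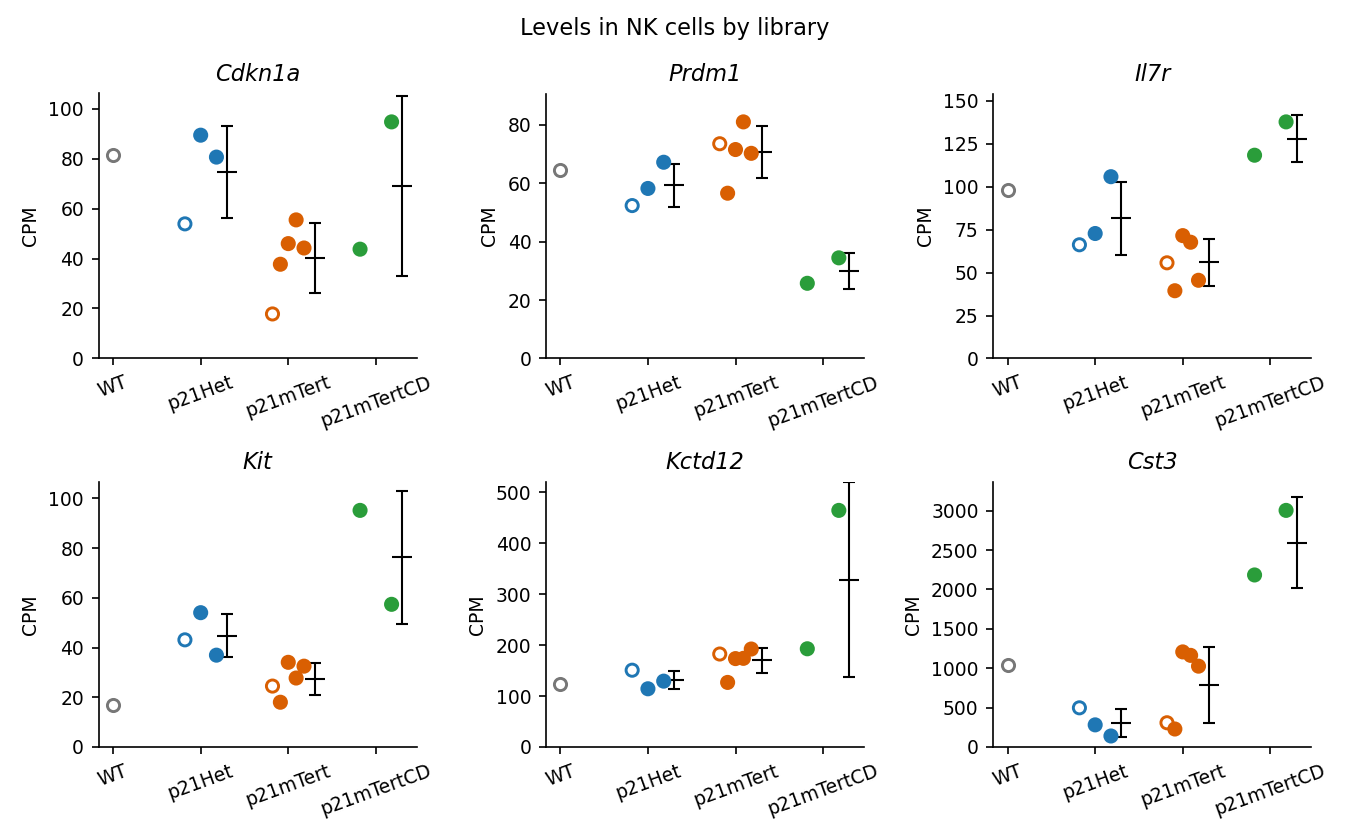
CPM in the NK cells of each library for Cdkn1a, Prdm1, Il7r, Kit, Kctd12 and Cst3, by group, with open circles for the first deposit and the mean ± SD beside groups with 2 or more libraries. Prdm1 is lowest in both p21mTertCD libraries (25.7 and 34.4 CPM), Il7r highest there (118.3 and 137.7 CPM), and none of the 6 genes passed edgeR's test across genes with all libraries, while DESeq2 called Kctd12 between p21mTertCD and p21Het.

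Of the receptors, Cd96, an inhibitory receptor for CD155, stood at 7.72 and 17.2 CPM in p21mTertCD, below all other libraries, which held 24.9 to 41.6 CPM. Its log2 difference of p21mTert from p21mTertCD was 1.38 ± 0.36 (SE, edgeR's quasi-likelihood test, adjusted p = 0.439), and 1.00 without p21mTertCD library 1. Of the 17 tested activating receptors, 0 were under an unadjusted p of 0.05 between p21mTert and p21Het and 1, Klrb1f, between p21mTert and p21mTertCD, with list medians of 0.05 and 0.02 on the log2 scale where all genes had -0.00 and 0.01. Of the 12 tested inhibitory receptors, Klrb1b alone was under 0.05 between p21mTert and p21Het. It stood at 159, 166 and 223 CPM in p21Het and 294, 189, 255, 235 and 246 CPM in p21mTert, which overlapped. Between p21mTert and p21mTertCD, 1 was higher in p21mTert, Cd96, and 1 lower, Lair1. Between p21mTertCD and p21Het, 2 were higher in p21mTertCD, Klrb1b and Lair1, and 1 lower, Cd96. No receptor gene was called between genotypes.

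Perforin levels in p21mTert overlapped both other tested groups. Prf1 stood at 1126 CPM in the wild type, 785, 1213 and 1526 CPM in p21Het, 924, 1283, 1156, 1255 and 1573 CPM in p21mTert and 1430 and 1334 CPM in p21mTertCD. Gzmb stood at 1806 CPM in p21mTertCD library 1 and 932 CPM in library 2, at 639, 790, 701, 834 and 969 CPM in p21mTert, 442, 1060 and 969 CPM in p21Het and 913 CPM in the wild type. Its log2 difference of p21mTert from p21mTertCD was -0.97 (edgeR's quasi-likelihood test, adjusted p = 0.489) and -0.27 without p21mTertCD library 1, so the value rested on that library. Of the 20 tested cytotoxic genes, 2 were under 0.05 unadjusted between p21mTert and p21Het, Serpinb9 higher (log2 difference 0.29) and Cst7 lower (-0.34) in p21mTert. There were 3 between p21mTert and p21mTertCD, Gzmb, Ctsc and Cst7, all lower in p21mTert, and 3 between p21mTertCD and p21Het, Gzma, Gzmb and Tnfsf10, all higher in p21mTertCD. Gzma stood at 12870 and 8905 CPM in p21mTertCD and 6249, 9068 and 8919 CPM in p21Het, which overlapped.

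Among the ILC1 markers, 4 of 11 tested were under 0.05 unadjusted between p21mTert and p21mTertCD, all lower in p21mTert (Cxcr6, Il7r, Inpp4b and Gpr183). The list median was -0.75. All 4 are among the genes that lead the ILC1-like sub-cluster, which held 6 cells in each p21mTertCD library. Without it Il7r turned to 0.59, and with both Ncr1 and Klre1 required it was -0.12. The summed level of the ILC1 markers was 601.9 and 702.9 CPM in the p21mTertCD libraries and 287.9 to 572.3 CPM in p21mTert. It was 404.7, 648.3 and 569.1 CPM in p21Het, which overlapped p21mTertCD. Between p21mTertCD and p21Het, 4 of the 11 ILC1 markers were under 0.05 unadjusted (Cxcr6, Il7r, Tnfsf10 and Gpr183), all higher in p21mTertCD. Of the 12 tested p53 targets and senescence genes, Cdkn1a alone was under 0.05 between p21mTert and p21Het. Bax and Pmaip1 were between p21mTertCD and p21Het, both higher in p21mTertCD. Between p21mTert and p21mTertCD 4 were (Cdkn1a, Ccng1, Bax and Pmaip1), all lower in p21mTert. The list median there was -0.06, and the summed level overlapped, at 1335 and 2103 CPM in p21mTertCD and 1489 to 1864 CPM in p21mTert. Without the MHC class II sub-cluster Cdkn1a was under 0.05 in neither comparison of p21mTert, and its difference of p21mTert from p21mTertCD turned to 0.20. None of the 10 tested telomere genes was under 0.05 in any of the 3 comparisons. Of the 15 tested interferon-stimulated genes, 1, Ifi27l2a, was under 0.05 between p21mTert and p21Het and none between p21mTert and p21mTertCD. Between p21mTertCD and p21Het 1 was, Irf7, higher in p21mTertCD. These counts are unadjusted, and 3.72 to 7.71% of all genes were under 0.05 in the same comparisons.

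Markers of other cell types moved between the libraries whose NK cells were compared. The summed epithelial markers ranged from 1476 to 14990 CPM in p21Het, 2431 to 6793 CPM in p21mTert and 1245 to 2166 CPM in p21mTertCD. Erythroid markers ranged from 123.1 to 3084 CPM, 114.2 to 12730 CPM and 65.99 to 720.2 CPM, macrophage markers from 936.7 to 4486 CPM, 577.1 to 3355 CPM and 920.9 to 1380 CPM, and B and plasma cell markers from 216.6 to 3875 CPM, 215.9 to 1860 CPM and 2585 to 3638 CPM in the same order. The last list includes Cd74, a leading gene of the MHC class II sub-cluster, which held 91.5% of the Cd74 UMIs of the NK cells. In the p21mTertCD libraries Cd74 stood at 2470 and 3614 CPM without the ILC1-like cells. There it stood at 157.8 and 90.36 CPM without the MHC class II sub-cluster. Cd79a and Csf3r were at 0 by the rule. The part of this RNA in the differences between genotypes was not tested beyond the values without a sub-cluster given above.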

How the data were processed

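The authors made the deposited UMI count matrices with Cell Ranger on mm10, per the submitters' processing notes; which version is not given consistently in the sources used here. Each matrix holds unnormalized counts of 31053 genes per barcode from 3′ V2 libraries, per the labels. From them, cells were filtered and gated as the report states. T and B cells had 2 or more UMIs of Cd3 genes or Cd79a, and CD8 T cells also 2 or more of Cd8a and Cd8b1 and none of Cd4, Ncr1 or Klre1. UMIs were summed per library and population and tested with edgeR 4.0.16 (quasi-likelihood, TMM, Benjamini-Hochberg adjustment over all genes tested), with DESeq2 1.42.0 as an alternative, in R 4.3.3. Shares were compared by exact permutation tests over every split of the libraries, and their exact binomial intervals came from scipy 1.17.1. Sub-clusters came from leidenalg 0.10.2, after normalizing and scaling in scanpy 1.11.5 (1000 variable genes, 20 principal components, 20 neighbours, Leiden resolution 0.5). Doublets were marked by score, up to 0.8% per 1000 barcodes, and kept in except in 1 alternative. The edgeR script was tested on simulated data. Depth per sample is given in the report; intervals are exact and cover counting error only. Named genes are Cdkn1a and Tert, the 5 genes of smallest p in each direction with at least 10 CPM where under 5 were called, and members of gene lists by level, call or smallest p. Members and lists were chosen with earlier results of these data known. Further genes under an unadjusted p of 0.05, and Cd96, Cxcr6 and Gzmb between p21mTertCD and other groups, were named after their values were seen. Promoters are from RefSeq, GRCm38.p6, and gene positions from GENCODE on GRCm38. Some genes of the lists are counted but not reported here by name.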

Additional observations from a re-analysis of the deposited data

Results flagged for a closer look

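In 70 gene levels tested over the 5 p21mTert libraries, 2 had 1 library far from the others, by a gap that took over 0.71 of the whole range. Kctd12 stood at 126.8 CPM in p21mTert library 2 and at 173.6 to 192.4 CPM in the other 4, with the gap taking 0.714 of the range. Map4k1, a kinase gene of lymphocyte signalling, stood at 18.85 CPM in p21mTert library 4 and at 13.0 to 14.57 CPM in the other 4, with the gap taking 0.732. Chance sets apart 1 library in about 1 in 20 groups by this measure.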

How the results depend on the processing

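The NK share of p21mTert over p21mTertCD kept its direction except where cells with over 2 Cd3 UMIs were counted in, an alternative chosen after seeing the data, which gave -2.80 points, and 4.08 points for p21mTertCD over p21Het. It had an exact permutation p of 0.0952 with NK, T and B cells as denominator (2.56 points), after thinning (0.530), without doublets (1.20) and with both Ncr1 and Klre1 required (1.08). That p was also above 0.05 in the later deposit (1.36) and without each p21mTert library in turn (1.05 to 1.36), where fewer samples raise the smallest possible p. Without p21mTert library 2, 4 or 5 the exact permutation p was 0.133, above the smallest possible there, 0.0667. Without p21mTertCD library 1 the difference was 1.07 points and without library 2 it was 1.32. With no filter on low counts, edgeR called 58, 56 and 84 genes in the 3 genotype comparisons. DESeq2 called 25 and 1 between p21mTert and p21mTertCD and between p21mTertCD and p21Het, and leaving out 1 library gave 0 to 1. Without p21mTertCD library 1, Kctd12 was called in both comparisons with p21mTertCD, and without library 2 Serpinb9b was called between p21mTert and p21mTertCD; the lone library is then assumed to vary like the other groups. Replicate numbers did not pair the samples: same-numbered samples had correlations from -0.270 to 0.455, and the replicate block called 1 (Adgrf5), 0 and 0 genes. Against CD8 T cells, DESeq2 called 1677 genes and edgeR without a filter 1823, where the stated test called 929.

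Leaving out a sub-cluster was an alternative chosen after seeing the data. Among the differences named, signs changed for Cdkn1a between p21mTert and p21mTertCD (0.10 with both Ncr1 and Klre1 required and 0.20 without the MHC class II sub-cluster). They also changed for Il7r there (0.59 without the ILC1-like one) and Cst3 between p21mTertCD and p21Het (-0.67 with both genes required). Between p21mTert and p21Het they changed for the endothelial gene Epas1 (-1.50, and 0.016 without doublets) and the B cell gene Ighm (-2.28, and 0.0335 without p21Het library 2, down to -2.79 without library 3). Fabp4 turned there in mean CPM, at 2.42 in p21mTert against 1.94 in p21Het without the MHC class II sub-cluster. Signs also changed in comparisons the text gives no fold for, among them, with both genes required, Il7r, Kit and Ahr between p21mTertCD and p21Het (-0.52, -0.36 and -0.26), Kctd12 between p21mTert and p21mTertCD (0.15) and Cst3 between p21mTert and p21Het (-0.60); and, without the ILC1-like cells, Il7r between p21mTertCD and p21Het (-1.57). The cause of these changes was not tested beyond the cells left out. Of the other main values, 124 were unchanged: share differences kept direction and side of the threshold, and counts of called genes stayed the same or close. Of the single-gene values, 1230 kept direction and side of the threshold, and 25 passed it only under an alternative. The p21mTertCD group holds 50 and 57 NK cells in 2 libraries; depth and library number cannot be told apart as limits there.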

Other observations

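Some NK genes stood at other levels in the first deposit, which holds no p21mTertCD library, than in the later one. Trbc1, the T cell receptor beta constant gene that NK cells transcribe, stood at 459 to 488 CPM in the 3 NK populations of the first deposit and at 203 to 331 CPM in the other 8. Tcf7, a factor of early NK cells, stood at 95.7 to 145 CPM against 41.2 to 71.0 CPM, without overlap. Prf1 went the other way, at 784.8 to 1126 CPM in the first deposit and 1156 to 1573 CPM in the later one, also without overlap. These ranges carry no test.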
